A study of Mus musculus with 9 samples.

Results

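The SLAM family receptors and their adaptor SAP were followed through T cell stimulation and through inhibition of NF-kB signalling. The 8 genes were taken by symbol from the count table: the receptor genes Slamf1, Slamf6, Slamf7, Cd244, Ly9 and Cd84, the receptor and ligand gene Cd48, and Sh2d1a, which encodes SAP. They were 8 of 49671 genes in the table, and all 8 were among the 18374 genes that passed the filter on low counts. Total RNA had been sequenced from CD3+ T cells of the spleen of F1 females, bred from C57BL/6 mothers that carried a heterozygous Xist deletion and castaneus fathers, a cross with skewed X inactivation. The 3 groups had 3 libraries each. Unstimulated cells went into TRIzol straight after column enrichment. Stimulated cells spent 48 hours on coated anti-CD3 (1 µg/ml) with anti-CD28 in solution (10 µg/ml), and the inhibitor group had IMD-0354 at 2.5 µM in that culture, a compound that blocks IKK-beta, the kinase that releases NF-kB. All groups share the cross. The labels name neither a vehicle control nor cells cultured unstimulated, so culture and stimulation cannot be told apart, and the sources used here do not give the ages of the mice. The sample titles call the 3 libraries of a group biological replicates and name no animals.

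SLAM receptors are immunoglobulin-type surface proteins of blood cells. Most bind the same receptor on a neighbouring cell, whereas CD244 binds CD48, which in the mouse is also bound by CD2. The tails of most of them carry tyrosine motifs that recruit SAP, a small SH2 protein that brings in the kinase FYN. SAP is needed for NKT cell development and for the help that follicular T cells give to B cells, and its loss in humans causes X-linked lymphoproliferative disease. CD48 has no tail of its own and is held by a lipid anchor.

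The promoters of 4 receptor genes are shown first, because Slamf1 and Slamf7 rose and Slamf6 and Cd84 fell with stimulation (values follow). Each run is the 250 bases before the RefSeq start site on GRCm38.p6, 5′ to 3′ on the gene's strand, and capitals mark motif matches.
Slamf1, chr1:171766882-171767131, plus strand: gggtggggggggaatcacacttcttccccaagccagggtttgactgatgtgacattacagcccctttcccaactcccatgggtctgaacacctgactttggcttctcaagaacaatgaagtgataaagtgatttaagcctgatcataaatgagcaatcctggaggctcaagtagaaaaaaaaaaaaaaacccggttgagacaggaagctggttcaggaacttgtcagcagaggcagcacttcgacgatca
Slamf7, chr1:171649000-171649249, minus strand: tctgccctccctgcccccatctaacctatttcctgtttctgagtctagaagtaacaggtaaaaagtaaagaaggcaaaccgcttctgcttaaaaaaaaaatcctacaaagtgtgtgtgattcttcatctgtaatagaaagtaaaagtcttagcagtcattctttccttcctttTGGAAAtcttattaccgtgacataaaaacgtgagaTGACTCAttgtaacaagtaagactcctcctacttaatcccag
Cd84, chr1:171839447-171839696, plus strand: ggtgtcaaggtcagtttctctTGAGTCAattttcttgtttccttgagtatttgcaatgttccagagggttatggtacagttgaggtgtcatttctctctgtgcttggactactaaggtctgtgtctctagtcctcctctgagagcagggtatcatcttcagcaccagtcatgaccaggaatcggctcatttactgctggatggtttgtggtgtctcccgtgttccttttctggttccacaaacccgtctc
Slamf6, chr1:171917212-171917461, plus strand: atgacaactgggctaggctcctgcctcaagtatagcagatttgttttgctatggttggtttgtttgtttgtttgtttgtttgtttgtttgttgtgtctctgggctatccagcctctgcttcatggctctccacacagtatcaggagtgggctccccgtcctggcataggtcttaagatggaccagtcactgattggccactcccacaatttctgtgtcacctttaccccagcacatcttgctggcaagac
Of the 8 genes, 6 had an entry in the promoter table; Ly9 and Sh2d1a had none. The motifs searched on both strands were the kappaB consensus bound by NF-kB, the AP-1 motif TGANTCA, the NFAT motif TGGAAA and the TCF/LEF motif CTTTGA. No kappaB match was in any of the 6 windows, against 3.9% of 32851 promoter windows of this length. TGANTCA was in 3 of them (Slamf7 at -42, Cd244 at -122 and Cd84 at -229 from the start site) and in 6.75% of all windows. TGGAAA was in the Slamf7 window at -77 (18.6% of all), and CTTTGA, read as TCAAAG, in that of Cd48 at -168 (13.8% of all). The Slamf1 and Slamf6 windows held none of the 4. AP-1 letters stood before a gene that rose with stimulation (Slamf7) and before others that fell (Cd244 and Cd84). The Slamf7 window lies inside the annotated span of that gene (171632403 to 171653035), so the RefSeq start differs there from the end of the gene model used for lengths. These matches describe letters in short windows and no binding was measured.

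Total counts ranged from 34009988 to 56221174 per library. Some libraries stood apart. Counts were found in 30106 genes in inhibitor library 1 and in 20547 to 23223 genes in each of the others, and unstimulated library 2 had the highest summed level of B cell markers (2834 CPM, against 987 and 2011) and of myeloid and dendritic cell markers (2909 CPM, against 1076 and 1756) of its group. CPM are counts scaled to a common library size, with TMM factors. In unstimulated library 3 the 9 erythroid and platelet markers summed to 41.55 CPM, against 477.5 and 613.5 CPM in unstimulated libraries 1 and 2. T cell markers were present in all libraries, with Trac between 224.5 and 339.1 CPM and Cd3e between 191.2 and 431.1. Of the 8 T cell markers, 2 were higher and 3 lower with stimulation, Cd3e among the lower ones. With the inhibitor, against stimulated cells, 2 were higher and 2 lower. Of all genes tested, 66.0% were called with stimulation and 44.5% with the inhibitor. The sum of the T cell markers was lowest in unstimulated library 2 (1159 CPM, against 1554 and 1800 in unstimulated libraries 1 and 3). Markers of other cells were much lower after culture: the 10 B cell markers summed to 69.9 to 78.7 CPM in stimulated and 150 to 155 in inhibitor libraries, and the 13 myeloid markers to 12.3 to 16.5 and 29.9 to 50.4 CPM, with Siglech, Clec9a and Xcr1 at 0 counts in all stimulated libraries. Several SLAM genes are also expressed by B, NK and myeloid cells, and the part of these cells in the values below was not tested. In such bulk RNA, fewer cells of a type and less RNA per cell cannot be told apart.

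With stimulation, 4 of the 8 genes rose (Slamf1, Slamf7, Cd48 and Sh2d1a), 3 fell (Slamf6, Cd244 and Cd84) and Ly9 was not called. Called means an adjusted p under 0.05 in edgeR's quasi-likelihood test with Benjamini-Hochberg adjustment over all genes tested. Of all genes 66.0% were called in this comparison, 32.0% higher and 34.0% lower, so the 7 of 8 are read against a high background. The 2 groups did not overlap in CPM for the same 7 genes, and for 72.9% of all genes. With the inhibitor, against stimulated cells, all 8 were called: Slamf6 and Cd84 rose and the other 6 fell. Of all genes 44.5% were called there, 21.7% higher and 22.8% lower, and the groups did not overlap for 57.5% of all genes and for 8 of the 8. The median log2 change of the 8 was 0.08 with stimulation (all genes -0.05) and -0.94 with the inhibitor (all genes 0.03). The stimulated libraries enter both comparisons, so changes in opposite directions share those 3 libraries. Leaving out unstimulated library 2 gave 4 higher and 4 lower with stimulation, since Ly9 was then called, and leaving out inhibitor library 1 gave the counts above for both comparisons.

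**Figure D1:**
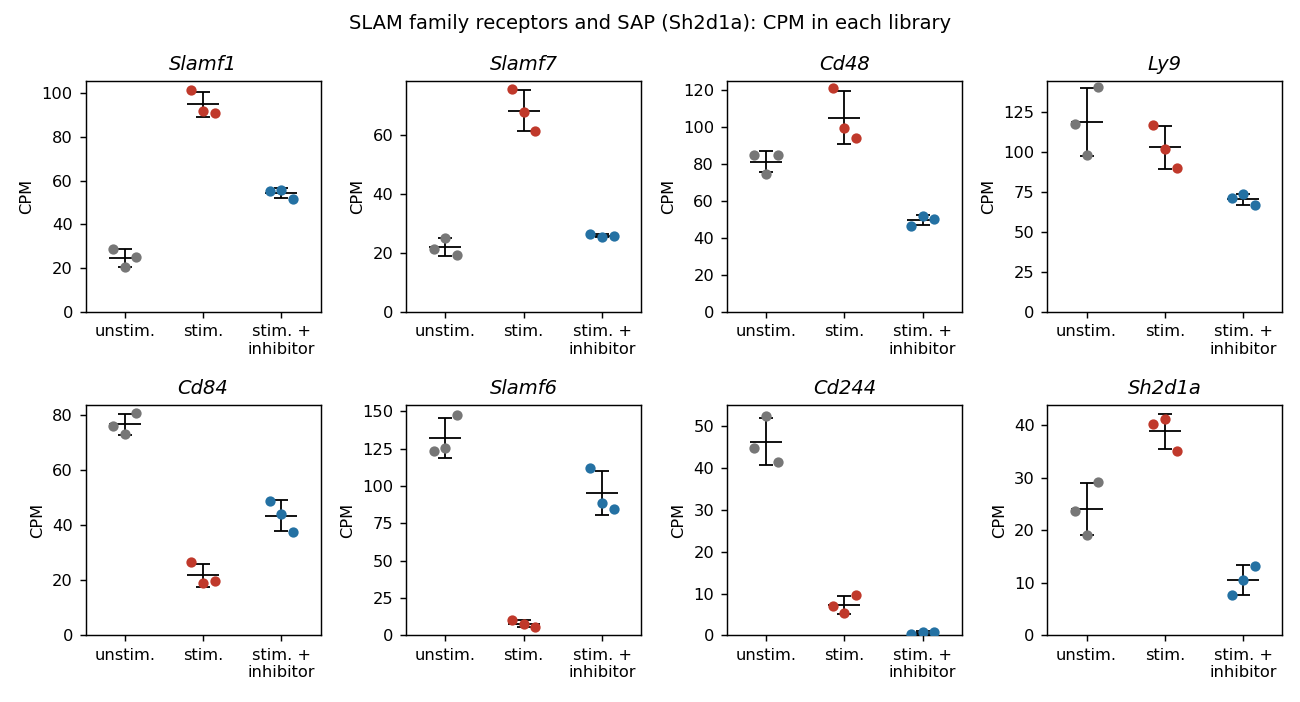
Level of each of the 8 genes in every library, in CPM on axes that start at 0; points are libraries, the horizontal mark is the mean and the bars 1 SD (n = 3 per group). Slamf1 and Slamf7 were highest in the stimulated libraries, Slamf6, Cd84 and Cd244 highest in the unstimulated ones.

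Slamf1 (CD150, chromosome 1, 171767127 to 171801184 on GRCm38), a self-binding receptor of activated lymphocytes, was at 28.6, 20.5 and 24.9 CPM in unstimulated libraries 1 to 3, at 102, 91.9 and 91.2 in the stimulated ones and at 55.4, 55.8 and 51.5 with the inhibitor. No library of any group overlapped those of another, and the inhibitor libraries lay between the other groups. Its log2 change was 1.94 ± 0.12 with stimulation (edgeR adjusted p = 5.1e-07) and -0.81 ± 0.12 with the inhibitor (adjusted p = 0.00041), where ± is an approximate SE (the absolute change divided by the root of F). Against unstimulated cells the inhibitor group was still 1.14 ± 0.12 higher (adjusted p = 2.8e-05), and Slamf1 was the one SLAM gene called as higher in that comparison.

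Slamf7 (CRACC, chromosome 1, 171632403 to 171653035, minus strand), a receptor that signals through the adaptor EAT-2 in NK cells, was at 21.4, 25.2 and 19.2 CPM in unstimulated and 75.6, 67.9 and 61.6 CPM in stimulated libraries. With the inhibitor it was at 26.4, 25.3 and 25.8 CPM. All inhibitor libraries were thus far under the stimulated range and just above the unstimulated one. It rose by 1.64 ± 0.12 on the log2 scale with stimulation (edgeR adjusted p = 1.6e-06) and fell by 1.40 with the inhibitor (adjusted p = 1.5e-05). Between inhibitor and unstimulated cells it differed by 0.24 ± 0.12 and was not called (adjusted p = 0.12), but was without unstimulated library 2 (0.34, adjusted p = 0.029). The annotated antisense gene Gm37787 covers 9.24% of its exon length. Gm37787 was under 1 CPM on average in every group, and the strand setting of the counting is not given in the sources used here.

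Slamf6 (Ly108, chromosome 1, 171917515 to 171953170), a self-binding receptor that also marks T cells with the progenitor factor TCF-1, fell with stimulation and rose with the inhibitor. Its levels were 124, 125 and 147 CPM in unstimulated, 10.3, 7.89 and 5.48 in stimulated, and 112, 88.4 and 84.7 CPM in inhibitor libraries. The stimulated libraries stood far below all others, and the highest inhibitor library was library 1. The log2 change was -4.06 ± 0.22 with stimulation (edgeR adjusted p = 2.3e-07), a 16.7-fold lower level, and 3.59 ± 0.22 with the inhibitor (adjusted p = 2e-06), a 12-fold higher one. Inhibitor and unstimulated cells differed by -0.48 ± 0.19, which was not called (adjusted p = 0.064). That call depended on settings: Slamf6 was called as lower in 12 of 19 alternatives, among them without inhibitor library 1 (-0.61, adjusted p = 0.037), without stimulated library 1 (-0.47, adjusted p = 0.029) and without stimulated library 3 (-0.47, adjusted p = 0.02), over a range of -0.66 to -0.39 and adjusted p of 0.001 to 0.18.

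Cd84 (chromosome 1, 171839697 to 171890718), another self-binding receptor and one that supports lasting contacts between T and B cells, moved the same ways as Slamf6 by smaller amounts. It was at 76.1, 73.3 and 80.7 CPM in unstimulated, 26.6, 19.0 and 19.8 in stimulated and 48.8, 44.2 and 37.6 CPM in inhibitor libraries. The 3 groups did not overlap, and the inhibitor group lay between the others. Cd84 fell by 1.82 on the log2 scale with stimulation (edgeR adjusted p = 2.7e-06) and rose by 1.00 ± 0.14 with the inhibitor (adjusted p = 0.00038), and its log2 difference from the unstimulated level was -0.82 ± 0.14 (adjusted p = 0.00083). Taken per kb of merged exon length within each library, Slamf1 stood at 0.288 to 0.407 of the Slamf6 level in unstimulated, 17.3 to 29.3 times that level in stimulated and 0.871 to 1.11 times in inhibitor libraries, with no overlap between groups. The near equality with the inhibitor depended on the length used. Per kb of the longest transcript, Slamf1 was at 11.7 to 12.6 and Slamf6 at 14.8 to 19.5 CPM per kb in inhibitor libraries.

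**Figure D2:**
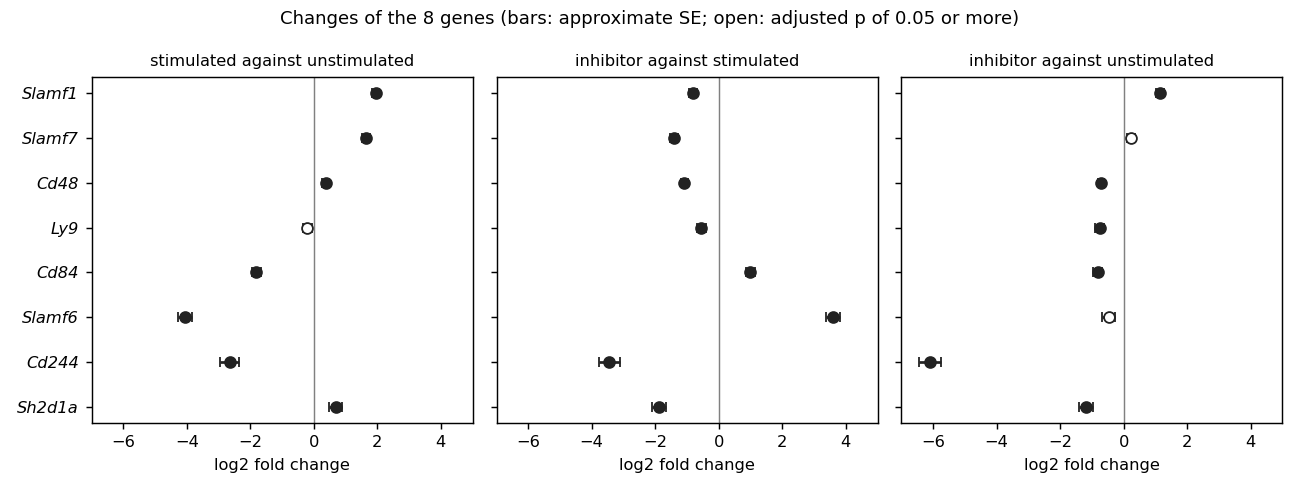
Log2 fold change of each gene in the 3 comparisons, with bars for the approximate SE; filled points had an adjusted p under 0.05. Slamf6 and Cd84 lie on the opposite side of 0 in the first and second comparison, and so do Slamf1, Slamf7, Cd48 and Sh2d1a. Cd244 and Ly9 are lower in all 3, Ly9 without a call in the first.

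Among ligands and their receptors, Cd48 (chromosome 1, 171682009 to 171705258), the ligand of CD244, was at 84.6, 74.5 and 84.6 CPM in unstimulated and 121, 99.5 and 93.8 CPM in stimulated libraries, and at 46.6, 51.5 and 50.3 CPM with the inhibitor. The inhibitor libraries were below every other library. The rise with stimulation was small (0.37 ± 0.11, edgeR adjusted p = 0.011) and was no longer called under upper-quartile scaling (0.14, adjusted p = 0.27) or when the test was limited to genes with a mean of 10 CPM or more (0.18, adjusted p = 0.13). The fall with the inhibitor (-1.08 ± 0.11, adjusted p = 3.8e-05) was called in all 19 alternatives. Cd2, the other mouse receptor of CD48, rose from 210 ± 34.7 to 365 ± 44.8 CPM (SD, n = 3) with stimulation and fell to 241 ± 16.8 with the inhibitor.

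Cd244 (2B4, listed as Cd244a in the annotation, chromosome 1, 171559193 to 171609746) is a receptor of NK cells and of cytotoxic T cells. It was lower in stimulated than in unstimulated cells, and lower with the inhibitor than in stimulated cells. Its levels were 44.8, 52.5 and 41.5 CPM in unstimulated, 7.06, 5.30 and 9.65 in stimulated, and 0.298, 0.806 and 0.861 CPM in inhibitor libraries, the last on 11, 37 and 42 counts. The stimulated libraries lay wholly below the unstimulated ones, and the inhibitor libraries wholly below the stimulated ones. The log2 change was -2.66 ± 0.29 with stimulation (edgeR adjusted p = 2.2e-05), -3.45 ± 0.33 with the inhibitor (adjusted p = 3.3e-05) and -6.10 ± 0.36 between inhibitor and unstimulated cells (adjusted p = 6.5e-07). The level of Cd48 per kb was 5.82 to 8.35 times that of Cd244 in unstimulated, 39.9 to 77.0 times in stimulated and 240 to 640 times in inhibitor libraries, the highest in inhibitor library 1.

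Most NK cell genes on the list, but not all, had the directions of Cd244. All 8 NK cell markers fell with stimulation (median log2 change -3.04, all genes -0.05). With the inhibitor 6 of 8 fell, Eomes rose and Klrc2 was not called (median -1.85, all genes 0.03). Of all genes 34.0% were called as lower with stimulation and 22.8% with the inhibitor. Ncr1, the NK cell receptor NKp46, was at 69.2 to 77.7 CPM in unstimulated, 1.14 to 1.79 in stimulated and 0.041 to 0.19 CPM in inhibitor libraries. The 8 markers summed to 317 to 403 CPM in unstimulated, 48.6 to 56.3 in stimulated and 42.1 to 53.0 CPM in inhibitor libraries, and none was at 0 counts over a whole group. Eomes, a transcription factor of NK cells and of cytotoxic T cells, made up most of the inhibitor sum: it was at 13.4 to 18.6 CPM in stimulated and 30.1 to 38.9 CPM in inhibitor libraries. The other 7 markers, a split made after the values were seen, summed to 251 to 320 CPM in unstimulated, 30.0 to 41.2 in stimulated and 11.7 to 15.3 CPM in inhibitor libraries. Without Eomes the sum was thus highest in unstimulated and lowest in inhibitor libraries, as were Cd244 and Ncr1. Klrd1, at 7.59 to 10.8 CPM, made up most of that inhibitor sum. With Eomes the sums of stimulated and inhibitor libraries overlapped. The part of NK cells in the Cd244 values was not tested.

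**Figure D3:**
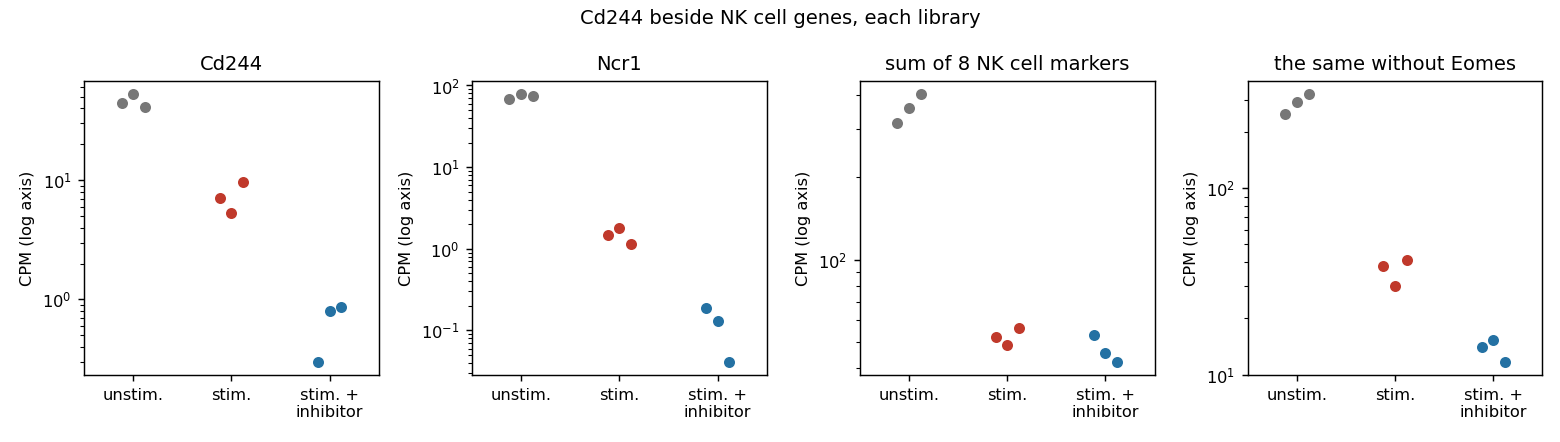
Cd244, the NK cell gene Ncr1, the sum of 8 NK cell markers and the sum of 7 of them without Eomes in each library, in CPM on log axes; points are libraries. Cd244, Ncr1 and the sum without Eomes, a split made after the values were seen, were highest in unstimulated and lowest in inhibitor libraries. The sum of all 8 overlaps between stimulated and inhibitor libraries, where Eomes was higher with the inhibitor.

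Ly9 (CD229, chromosome 1, 171588624 to 171607410, minus strand), a self-binding receptor on T and B cells, was not called with stimulation and fell with the inhibitor. It was at 118, 97.9 and 141 CPM in unstimulated and 117, 102 and 90.0 CPM in stimulated libraries, which overlapped, and at 71.5, 73.5 and 66.6 CPM with the inhibitor, below all others. The change with stimulation was -0.21 ± 0.14 (edgeR adjusted p = 0.2). It moved to -0.33 without unstimulated library 2 (adjusted p = 0.037), the library with the most B cell and myeloid RNA and the lowest T cell marker sum. The change was -0.06 without unstimulated library 3 (adjusted p = 0.69) and -0.11 without stimulated library 3 (adjusted p = 0.52). Upper-quartile scaling also gave a call (-0.43, adjusted p = 0.026), as did the limit of 10 CPM (-0.40, adjusted p = 0.022). Ly9 fell by 0.55 with the inhibitor (adjusted p = 0.0086). The Ly9 gene lies on the opposite strand within the span of Cd244, and 0 of its exon bases overlap Cd244 exons. Total RNA was sequenced and the strand setting is not given. Reads from unspliced RNA of one gene that fall in exons of the other thus cannot be told apart.

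Sh2d1a (SAP, chromosome X, 42502453 to 42529330), the adaptor that most of these receptors use, moved in the same directions as Cd48. It was at 23.7, 19.2 and 29.1 CPM in unstimulated, 40.3, 41.1 and 35.0 in stimulated and 7.65, 10.6 and 13.3 CPM in inhibitor libraries. The groups did not overlap, and the inhibitor group was the lowest. It rose by 0.69 ± 0.20 with stimulation (edgeR adjusted p = 0.013), a call lost under upper-quartile scaling (0.47, adjusted p = 0.057), and fell by 1.88 with the inhibitor (adjusted p = 8.3e-05), to 1.19 under the unstimulated level (log2 change -1.19 ± 0.21, adjusted p = 0.00085). Of 587 X-linked genes tested, 191 rose and 156 fell with stimulation and 121 rose and 119 fell with the inhibitor. Over all 18374 genes tested, 5880 rose (32.0%) and 6246 fell (34.0%) with stimulation. With the inhibitor 3990 rose (21.7%) and 4192 fell (22.8%). The counts do not separate the alleles. The opposite-strand gene Tenm1 overlaps 26.6% of the exon length of Sh2d1a, and without a stated strand setting reads there cannot be assigned with certainty.

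The other SAP-type adaptors were low. Sh2d1b1, which encodes EAT-2, fell with stimulation from 4.61 ± 1.30 to 0.293 ± 0.146 CPM and with the inhibitor to 0.106 ± 0.018 CPM (SD, n = 3; edgeR adjusted p = 1.5e-05 and 0.035), and Sh2d1b2 was at 0.911 ± 0.127, 0.097 ± 0.113 and 0.089 ± 0.135 CPM. Sh2d1b1 is an NK cell gene, and its levels moved beside the NK cell markers above. Slamf8 and Slamf9, family members of myeloid cells without SAP-binding motifs, fell with stimulation (Slamf8 from 6.06 ± 1.10 to 0.133 ± 0.092 CPM) and rose with the inhibitor (Slamf8 to 0.910 ± 0.784 CPM, Slamf9 from 0.183 ± 0.144 to 0.855 ± 0.232 CPM), as the myeloid markers did in 13 and 5 of 13 members. With Cd2, this list of 5 had 1 gene higher and 4 lower with stimulation, and 2 higher and 2 lower with the inhibitor. Without unstimulated library 2 the first count was 1 and 3, and without inhibitor library 1 the second was 2 and 1. Of all genes 66.0% were called with stimulation and 44.5% with the inhibitor.

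Levels per kb of merged exon length put genes of different length on a common scale. Reads of the cross were aligned to mm10, and unequal loss of castaneus reads between genes was not tested. By this measure Cd48 was the most abundant of the 8 in every group, and Ly9 was next. Cd48 was at 68.3 ± 4.92, 88.1 ± 12.1 and 41.6 ± 2.17 CPM per kb in unstimulated, stimulated and inhibitor cells (SD, n = 3). In unstimulated cells Cd84 (12.2 ± 0.59) and Slamf6 (12.2 ± 1.22) followed with overlapping ranges, then Cd244 (9.49 ± 1.15), and Slamf7, Sh2d1a and Slamf1 overlapped at the bottom (4.79 ± 0.66, 4.36 ± 0.91 and 4.0 ± 0.66). In stimulated cells Slamf1 (15.4 ± 0.95) and Slamf7 (14.9 ± 1.53) took the third and the fourth place with overlapping ranges, and Slamf6 was last (0.729 ± 0.224). In inhibitor cells Slamf1 (8.81 ± 0.39) and Slamf6 (8.77 ± 1.36) overlapped in the third and the fourth place, followed by Cd84 (6.94 ± 0.90), Slamf7 (5.64 ± 0.12) and Sh2d1a (1.91 ± 0.51), and Cd244 was last (0.134 ± 0.064). With the longest transcript as the length, the first and second places were kept in every group, but lower places changed. Slamf6 then stood alone in the third place in inhibitor cells, at 16.6 ± 2.57 CPM per kb. Cd84 (12.7 ± 1.65) came next there and overlapped Slamf1 (12.3 ± 0.54). In unstimulated cells Sh2d1a (8.74 ± 1.82) no longer overlapped Slamf1, and Slamf7 was last. In stimulated cells Slamf6 stayed last but overlapped Cd244.

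The 7 genes other than Sh2d1a lie in 1 cluster of 394 kb on chromosome 1 (171559193 to 171953170), in the order Cd244, Ly9, Slamf7, Cd48, Slamf1, Cd84 and Slamf6. The 3 SLAM genes from Slamf7 to Slamf1, which stand next to each other in that order, rose with stimulation and fell with the inhibitor. Cd84 and Slamf6 at one end did the reverse, and Cd244 at the other end fell in both. The rise of Cd48 with stimulation was small and was called in 17 of 19 alternatives. Gm10521, a predicted coding gene between Cd84 and Slamf6, was at 20.8, 3.73 and 10.0 CPM in unstimulated, stimulated and inhibitor cells, with log2 changes of -2.48 and 1.42 (edgeR adjusted p = 7.3e-06 and 0.00068). Of the 12 genes other than the receptors annotated in the cluster, Gm10521 among them, 6 were tested, of which 1 rose and 3 fell with stimulation and 1 rose and 0 fell with the inhibitor. Gm37010 within Cd48 rose with stimulation (log2 change 1.07, adjusted p = 0.026). Gm37065 at Slamf6 and Gm37787 at Slamf7 fell (-4.36 and -5.01, adjusted p = 0.0016 and 0.003), the latter against the direction of Slamf7. A630035G10Rik and Gm37981 before Cd48 were not called with stimulation or with the inhibitor. These genes were low, such as Gm37787 at 0.756 and 0.0216 CPM in unstimulated and stimulated cells. Of 29 genes within 250 kb outside the cluster 20 were tested, of which 5 rose and 9 fell with stimulation and 4 rose and 1 fell with the inhibitor. Over all genes tested the shares were 32.0% higher and 34.0% lower with stimulation, and 21.7% and 22.8% with the inhibitor.

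**Figure D4:**
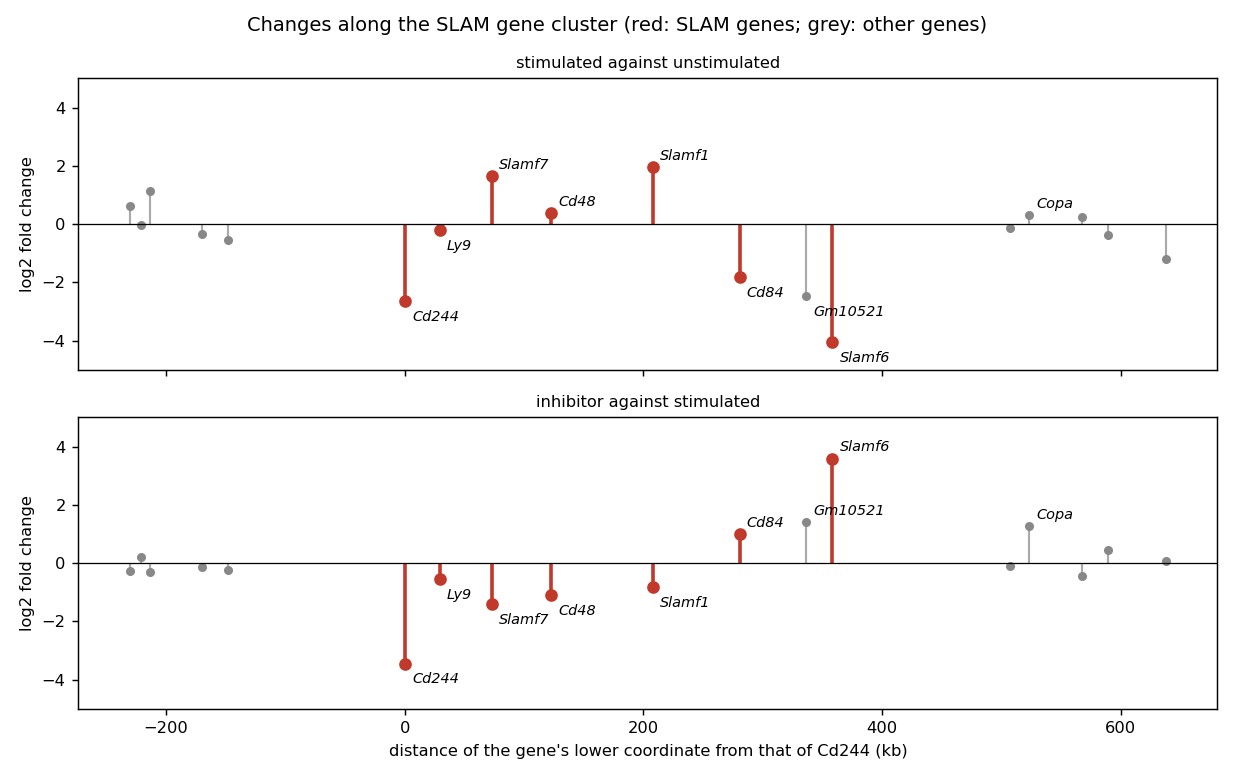
Log2 fold change along the SLAM cluster against the distance from Cd244 in kb, for the 18 tested genes with a mean of at least 5 CPM, 7 of them SLAM genes (red) and the others grey. The genes from Slamf7 to Slamf1 point up in the upper panel and down in the lower one, and Cd84, Gm10521 and Slamf6 the reverse.

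Signalling genes of the pathway were taken from a list of 12 that act next to the receptors. With stimulation 3 rose, 6 fell and 3 were not called (median log2 change -0.23, all genes -0.05). With the inhibitor 5 rose, 2 fell and 5 were not called (median 0.05, all genes 0.03). Of all genes 66.0% were called with stimulation and 44.5% with the inhibitor, so these counts are read against a high background. Fyn, the kinase that SAP recruits, fell from 273 ± 32.2 to 137 ± 4.37 CPM with stimulation and was at 205 ± 15.9 CPM with the inhibitor (log2 changes -0.99 and 0.58, edgeR adjusted p = 1e-05 and 0.00087). Prkcq, a protein kinase C that acts after FYN, fell by 1.79 with stimulation and was 0.40 higher with the inhibitor than in stimulated cells (edgeR adjusted p = 3.6e-07 and 0.0096). Inpp5d, the lipid phosphatase SHIP-1, fell by 0.88 with stimulation (adjusted p = 5.8e-06) and was at 136 ± 10.3 and 136 ± 5.85 CPM in stimulated and inhibitor cells. Dok2, an adaptor that restrains Ras signalling, was at 48.9 ± 7.92, 63.5 ± 3.49 and 28.0 ± 3.94 CPM in unstimulated, stimulated and inhibitor cells. It rose by 0.38 with stimulation (edgeR adjusted p = 0.032) and was 1.18 lower with the inhibitor than in stimulated cells (adjusted p = 0.0001). The phosphatase genes Ptpn6 (SHP-1) and Ptpn11 (SHP-2) moved little: Ptpn11 rose by 0.30 with stimulation and Ptpn6 by 0.34 with the inhibitor. Without unstimulated library 2, 2 rose and 6 fell with stimulation, and without inhibitor library 1, 4 rose and 2 fell with the inhibitor.

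Genes of follicular helper and NKT cells, the T cell types that most depend on SAP, moved both ways. Of 10, 5 rose and 4 fell with stimulation (median 0.29, all genes -0.05), and 2 rose and 5 fell with the inhibitor (median -0.73, all genes 0.03). Of all genes 66.0% were called with stimulation and 44.5% with the inhibitor, again a high background. Icos, a costimulatory receptor, rose from 10.4 ± 0.70 to 160 ± 4.74 CPM and fell to 22.3 ± 3.30 with the inhibitor, and the cytokine gene Il21 went from 0.621 ± 0.107 to 47.5 ± 14.9 and to 1.12 ± 0.473 CPM. Bcl6, the follicular helper factor, fell from 53.2 ± 8.17 to 2.30 ± 0.03 CPM and rose to 15.7 ± 1.07, and Tcf7, which encodes TCF-1, fell from 796 ± 128 to 167 ± 15.5 and rose to 503 ± 29.9 CPM. Bcl6 and Tcf7 thus had the directions of Slamf6 in both comparisons. Zbtb16, the factor of NKT and other innate-like T cells, was lower in both comparisons, as Cd244 was. Its levels were 21.3 ± 1.02, 3.74 ± 0.11 and 1.02 ± 0.67 CPM in unstimulated, stimulated and inhibitor cells. Without inhibitor library 1, 3 rose and 5 fell with the inhibitor.

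**Figure D5:**
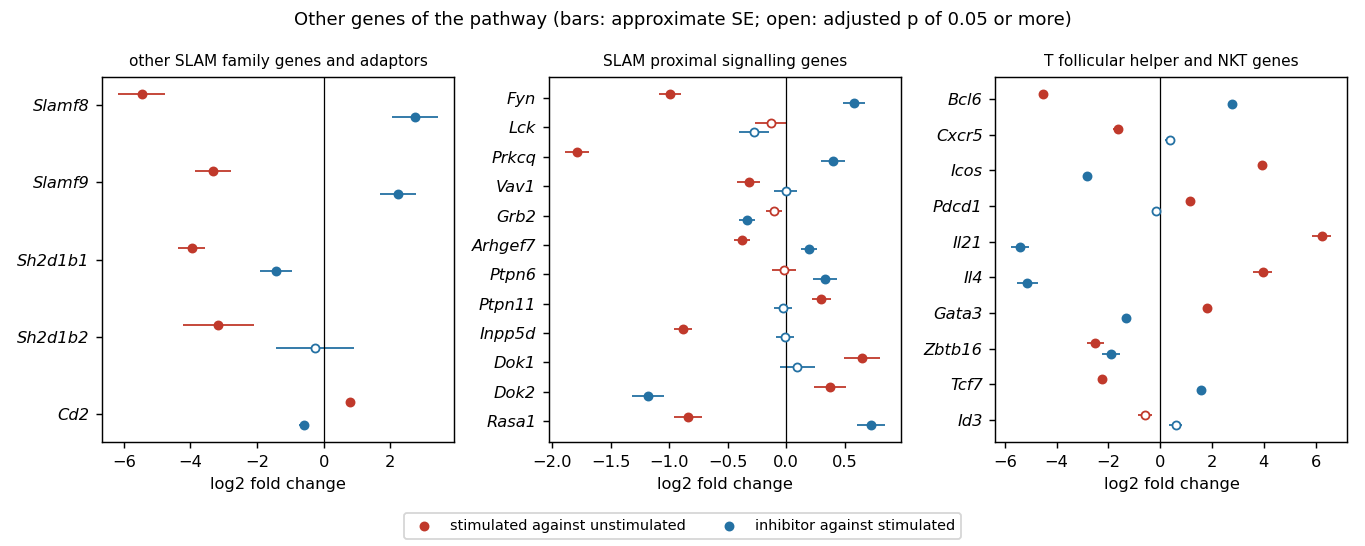
Log2 fold changes of 3 lists of pathway genes with stimulation (red) and with the inhibitor against stimulated cells (blue); bars are approximate SE and open points had an adjusted p of 0.05 or more. Bcl6 and Tcf7 were lower with stimulation and higher with the inhibitor, Icos, Il21 and Gata3 the reverse.

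Between inhibitor and unstimulated cells, 1 of the 8 SLAM genes rose (Slamf1), 5 fell (Cd48, Cd244, Ly9, Cd84 and Sh2d1a) and Slamf6 and Slamf7 were not called. Of all genes 52.4% were called in this comparison, 26.3% higher and 26.1% lower, and the groups did not overlap in CPM for 59.8% of genes, against 8 of the 8 SLAM genes. The median log2 change of the 8 was -0.73 (all genes 0.00). Cd48 was 0.72 lower (-0.72 ± 0.11, edgeR adjusted p = 0.00031) and Ly9 0.75 lower (-0.75 ± 0.14, adjusted p = 0.0011). Without inhibitor library 1 the counts were 1 higher and 6 lower, and without unstimulated library 2 they were 2 and 5.

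The genes most like each SLAM gene were found by the Pearson correlation of log2 CPM over the 9 libraries, among the 9020 genes whose mean log2 CPM was 3 or more. The libraries fall into 3 groups, so the value chiefly reflects the group means, and it is given as a measure of likeness only. For Slamf6 they were Tcf12 (0.997), Ipcef1 (0.996) and Filip1l (0.996), all lowest in stimulated cells, such as Ipcef1 at 297, 43.4 and 265 CPM in unstimulated, stimulated and inhibitor cells. For Cd84 they were Rb1cc1, Slc35a5 and Elf2 (0.994 to 0.997). For Slamf1 they were Stc2, Ptges3 and Polr1a (0.993 to 0.999), and for Slamf7 Ptcd3, Paqr4 and the glycolytic gene Tpi1 (0.991 to 0.995). For Sh2d1a the nearest gene was Dok2 (0.986), itself a gene of the signalling list, and for Cd48 it was Ccng2 (0.991). Among the genes compared, Cd244 was nearest to Ass1 (0.990) and Spry2 (0.989), and Ly9 to the X-linked gene Sash3 (0.969). The correlation ignores the size of a change. Ass1 was at 52.0, 42.3 and 29.9 CPM in unstimulated, stimulated and inhibitor cells, and Cd244 at 46.3, 7.33 and 0.655 CPM. NK cell genes with very low levels after culture, such as Ncr1, were under the limit on mean log2 CPM and could not be named. Cd244 itself was under that limit, so genes at its own levels were left out of the genes compared.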

How the data were processed

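The data were read counts per gene in a deposited table of 49671 genes and 9 libraries, 3 per group, with no normalization visible in the values. Per the submitters' processing notes, reads were aligned to mm10 with STAR 2.7.1a and counted with featureCounts. The strand setting, how mates were counted and the gene models are not given by the sources used here. Of the counts from 1 to 10, 70.6% to 78.5% were even in each library, and an alternative halved all counts. Replicates were more different than sampling noise allows (chi-square over its degrees of freedom 30 to 112). The sample titles call the libraries biological replicates and do not name the animals or cultures behind them, and the p-values reflect the spread among these samples.

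Gene names, positions and lengths came from GENCODE M21, which held 49412 of the identifiers. Genes were kept with filterByExpr of edgeR 4.0.16 (R 4.3.3) and scaled with TMM factors. All 9 libraries entered 1 quasi-likelihood model (glmQLFit and glmQLFTest) of group, which left 6 residual degrees of freedom. Two-sided p-values were adjusted over all 18374 genes tested, and the procedure was tested on simulated counts in which a small part of the genes changed. In the data 44.5% to 66.0% of genes were called, so the simulation does not show how the scaling acts when so many genes change. Alternatives used DESeq2 1.42.0, limma 3.58.1, other scalings and filters, a replicate block and fewer libraries. A floor of 3 counts over a group corresponds to 0.0205 to 0.0228 CPM and covers counting error only.

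Named were all 8 genes, those of the fixed lists, the genes of the cluster and the 3 genes most like each SLAM gene. The members and lists were chosen with earlier results of these data known, and the promoter motifs were chosen after the data had been seen.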

Additional observations from a re-analysis of the deposited data

How the results depend on the processing

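Each result was recomputed under 19 alternatives, 2 of them chosen after seeing the data (leaving out unstimulated library 2 and inhibitor library 1 together, and halving all counts). No SLAM gene changed direction in 456 refits, 436 kept their side of the threshold, 3 lost a call and 17 gained one, and the inhibitor comparison against stimulated cells kept all 152. Under upper-quartile scaling the median of all genes was -0.27 in place of -0.05 with stimulation and 0.16 in place of 0.03 with the inhibitor, and 2 SLAM genes were called as higher with stimulation in place of 4. With genes of at least 10 CPM, 3458 genes rose and 3490 fell with stimulation in place of 5880 and 6246, and 2934 and 2918 differed between inhibitor and unstimulated cells in place of 4826 and 4800, where fewer genes were tested. Leaving out 1 library at a time gave 1 to 2 SLAM genes higher and 5 to 6 lower in the latter comparison. The labels number the replicates alike in each group but name no shared animal. With the replicate number as a block, 5705 genes rose and 6002 fell with stimulation, 3642 and 3940 with the inhibitor, and 4550 and 4575 between inhibitor and unstimulated cells, and no call of a SLAM gene changed. Deviations of same-numbered libraries from their group means correlated between -0.194 and 0.144, so the numbers were not taken as pairs. Between stimulated and inhibitor cells every library correlated best with its own number, a hint from the data and not from the design, which did not hold for the other pairs of groups. Cd244 in inhibitor cells rests on 11 to 42 counts per library, which limits its precision.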
